A study of Oryctolagus cuniculus with 24 samples.

Results

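Peripheral blood mononuclear cells (PBMCs) held under PMA-Ionomycin for 24 h (T24) were compared with those held under it for 4 h (T4). The comparison used 8 of the 24 arrays of the series, 4 at each time, found by the agent and time in the sample labels and matched by rabbit number. This rule used no measured value, although the comparison was taken up with earlier results of the series known. The cells came from the blood of 4 New Zealand White rabbits, adult females that carry the numbers 1, 2, 4 and 5, and each gave 1 culture at each time. Both groups received PMA at 10 ng/mL and ionomycin at 1 µg/mL, in the same medium with serum, and neither was set against mock-stimulated cells before the comparison. The other 16 arrays measured mock-stimulated PBMCs, which received the buffer alone, and PBMCs under LPS at 1 µg/mL, at the same 2 times and from the same rabbits. The cultures were not sorted, so a lower level of a gene can come from fewer cells of a type or from less RNA per cell, and bulk arrays cannot tell these apart.

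PMA is a phorbol ester that stands in for diacylglycerol and switches on protein kinase C, and ionomycin carries calcium into the cell. Given together they bypass the antigen receptor of T cells and set off NF-kappaB, AP-1 and NFAT, the transcription factors that drive cytokine genes. Genes of the immediate early class answer within the hour and are then shut off by inhibitors that the same signal induces, whereas genes of DNA replication and mitosis follow when lymphocytes enter the cell cycle.

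A level below is the log2 median signal of a gene minus the median of its array, so that 0 is the middle of the array and a level can be compared between arrays but not between genes. Levels are listed in the order rabbit 1, 2, 4 and 5. The change over time is the mean of the 4 rabbits on the log2 scale, T24 minus T4, with the standard error (SE) and the adjusted p of limma, and a gene is said to have risen or fallen where that adjusted p was under 0.05. Spots that the scanner software marked as well above background made up 52.6 to 60% of each PMA-Ionomycin array at T4 and 56.7 to 61.0% at T24, and rabbit 2 had the lowest share at both times. The 8 arrays were spread over 3 slides, each with arrays of both times. Of 14 markers of monocytes and macrophages 10 were well above background on all 4 arrays at T4 and 10 at T24, as were 8 and then 9 of 9 markers of B cells, and 9 of 12 markers of T cells at both times. Among the T cell markers, the probes of CD4 were below background. The mean level over the T cell markers lay between 0.473 and 0.782 on the T4 arrays and between 0.555 and 0.733 on the T24 arrays.

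The probes of the genes on which the comparison turned are shown first, because a level here is the signal of a 60-base probe and a gene with a single probe rests on that sequence alone. BCO2 had the largest rise of all genes with a symbol and IL13 the largest fall among the T cell cytokines, each on 1 probe, CD74 had the second largest fall of MHC class II, also on 1 probe, IFNG had a pair of probes that differed, and CSF2 had 5 that overlapped. Positions are those of the files on oryCun2, and the strand is that given by the order of start and end there.
BCO2, chr1:104154564-104154623, minus strand: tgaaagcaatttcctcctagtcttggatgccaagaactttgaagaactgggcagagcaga
IL13, chr3:15691744-15692067, plus strand: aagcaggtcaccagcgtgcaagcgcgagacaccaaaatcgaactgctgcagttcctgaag
CD74, chr3:32151854-32151913, minus strand: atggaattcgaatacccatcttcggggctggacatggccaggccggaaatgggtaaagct
IFNG, catalogue probe, chr12:101894325-101894384, minus strand: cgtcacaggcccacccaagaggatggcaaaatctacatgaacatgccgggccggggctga
IFNG, probe added for immune genes, no position in the files: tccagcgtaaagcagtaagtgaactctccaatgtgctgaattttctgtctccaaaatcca
CSF2, leftmost probe, chr3:15145955-15146014, plus strand: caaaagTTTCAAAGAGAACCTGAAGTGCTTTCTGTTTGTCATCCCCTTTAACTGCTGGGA
CSF2, rightmost probe, chr3:15145961-15146020, plus strand: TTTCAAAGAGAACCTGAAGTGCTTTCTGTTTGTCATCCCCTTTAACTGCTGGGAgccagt
Capitals mark the 54 bases that the leftmost and rightmost CSF2 probes share, since they are shifted by 6 bases, and the 5 CSF2 probes are therefore repeat readings of 1 stretch rather than separate evidence. The IL13 probe of 60 bases covers a genomic span of 324 bases, so it crosses an intron. Of the IFNG probes, the catalogue probe gave a log2 difference of -0.12 (adjusted p = 0.68) and the added probe 0.64 (adjusted p = 0.0958).

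Between T4 and T24, 10611 of 28762 genes changed by limma with Benjamini-Hochberg adjustment, or 36.9% of those tested. Of these, 6210 rose (21.6% of those tested) and 4401 fell (15.3%), and for 9722 genes (33.8%) the levels of the 4 arrays at T24 did not overlap with those at T4. The median change over all genes was -0.10. These shares are the background against which each gene list is set below. Some lists lay near them, with rises of 10 to 25% and falls of 10 to 26.3%, and are not read as changed. These were chemokines, NFAT and calcineurin, SOCS, translation factors, cytosolic ribosomal proteins, MHC class I and T cells. The split between rises and falls over all genes rested on the scaling. With processed signals set to the 75th percentile of each array, 4930 genes rose and 5644 fell, and with the deposited log2 values 5913 rose and 6439 fell, so that the share of rises went from 58.5% of the calls to 46.6 and 47.9%. The processed signal moved the median of all genes by -0.14 and leaving out dim probes moved it by 0.24. Across these and the other alternatives the median changed sign for 13 lists, all of those between -0.11 and 0.33 except cholesterol synthesis and G1/S regulators: chemokines, NFAT and calcineurin, SOCS, one-carbon metabolism, translation factors, cytosolic ribosomal proteins, chaperones, MHC class I, lysosome, monocytes, B cells, T cells and erythroid cells. With processed signals several medians given below moved further from 0, to -3.39 for immediate early genes, -1.97 for ERK pathway inhibitors, -1.69 for T cell cytokines, -1.29 for activation receptors, -1.0 for fate factors, -2.04 for S100 and antimicrobial genes, -1.31 for the unfolded protein response, -0.68 for the BCL2 family and 0.83 for the interferon response. With quantile normalization that of the histone and chromatin factors was 0.55.

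**Figure D1:**
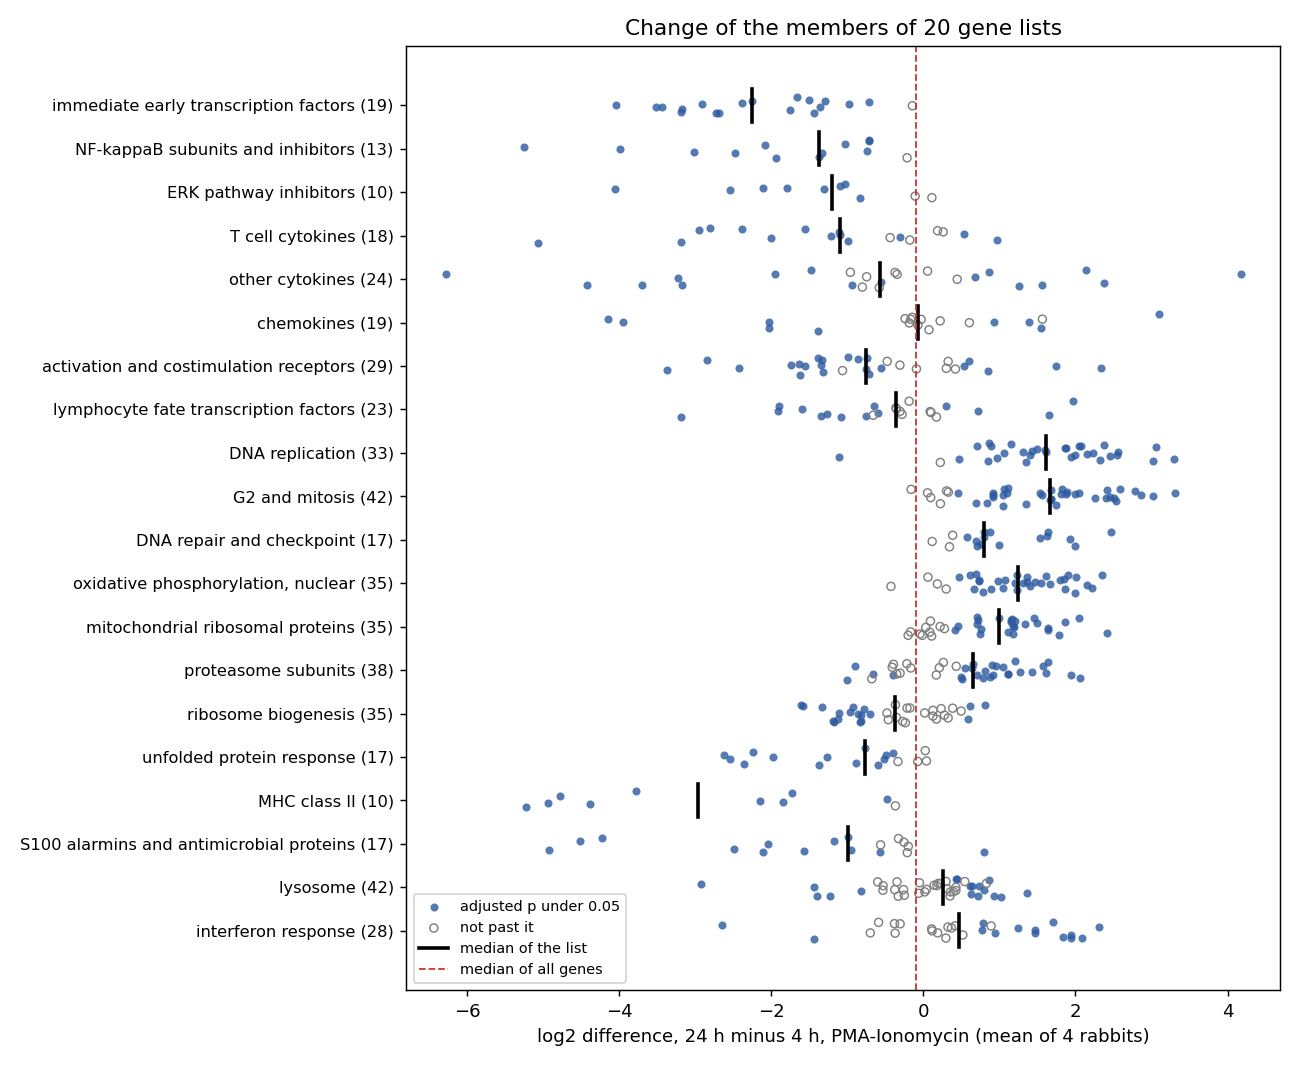
Change between T4 and T24 under PMA-Ionomycin for every measured member of 20 gene lists, in log2 units as the mean of 4 rabbits, with the number of measured members in brackets. Filled points passed adjusted p under 0.05 and open points did not, black bars are list medians, and the dashed line at -0.10 is the median of all genes. Immediate early, NF-kappaB and MHC class II genes lie to the left, and replication, mitosis and oxidative phosphorylation genes to the right.

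Genes of the immediate early class fell together. Of 19 measured members, 18 fell and none rose, with a median change of -2.25, and the levels at both times did not overlap for 18 of them. EGR1, a zinc finger factor that is among the earliest genes switched on by protein kinase C and is shown here as an example chosen after its values were seen, was at 2.43, 2.67, 2.64 and 2.49 at T4 and at -0.16, -0.29, -0.19 and -0.05 at T24. All 4 rabbits moved from well above the array median to just below it, a change of -2.73 (SE 0.13, adjusted p = 3e-12), although its probes differed in size, from -3.97 to -1.49. NR4A3, an orphan nuclear receptor induced by antigen receptor signals, fell by 4.05 from levels between 6.22 and 7.23 to levels between 2.45 and 2.65. Its relative NR4A2 fell by 3.51, and IER3, an early response gene that modulates NF-kappaB and ERK, fell by 3.44. EGR4 was the member that did not pass the test, with a change of -0.14.

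The genes that feed back on NF-kappaB fell too. Of 13 measured subunits and inhibitors, 12 fell and none rose (median -1.38). NFKBID, a nuclear inhibitor of the IkappaB type, was at 6.67, 6.38, 7.47 and 7.49 at T4 and at 1.60, 1.38, 1.63 and 2.40 at T24. Every T4 array lay above every T24 array by a wide margin, and the fall of 5.25 (SE 0.20, adjusted p = 3.89e-13) amounted to 38.1-fold. NFKBIZ, another nuclear inhibitor, fell by 3.99, and NFKBIA, the classical inhibitor that is resynthesised after each activation, fell by 3.02. Among 10 inhibitors of the ERK pathway, 8 fell and none rose (median -1.20). ERRFI1, a receptor kinase inhibitor, fell by 4.05, and the MAP kinase phosphatases DUSP1 and DUSP6 fell by 2.54 and 2.10. SPRY1, a Sprouty inhibitor of Ras signalling, fell by 1.31.

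T cell cytokines formed no single class. Of 18 measured genes 12 fell, 2 rose and 4 did not pass the test, with a median of -1.10. IL13, a type 2 cytokine, was at 6.46, 5.75, 6.87 and 5.87 at T4 and at 1.31, 0.92, 1.45 and 0.97 at T24. The fall of 5.07 (SE 0.15, adjusted p = 3.48e-15) was 33.6-fold and close in all 4 rabbits. IL4, the other type 2 cytokine of the same cluster, was at 8.38, 8.32, 8.27 and 8.52 at T4 and at 5.01, 5.48, 5.68 and 5.53 at T24. It fell by 2.95 (SE 0.30, adjusted p = 7.34e-08) and the groups did not overlap, but it was still far above the array median at T24. CSF2, which encodes GM-CSF, was at 8.74, 7.77, 8.73 and 8.38 and then at 5.90, 4.44, 5.15 and 5.36. This fall of 3.19 (SE 0.39) left it, too, above the middle of the array.

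IL2, the growth factor of T cells, was at 5.02, 4.26, 4.52 and 4.38 at T4 and at 3.78, 3.54, 3.28 and 3.15 at T24. Its fall of 1.11 (SE 0.14, adjusted p = 8.38e-07) was 2.15-fold, and the groups did not overlap. IL10, which restrains inflammation, fell by 2.81 (SE 0.62), IL17A, the cytokine of Th17 cells, by 2.38, and IL21, a product of follicular helper cells, by 2.0. IL22, which acts on epithelia, fell by 1.21, TNFSF14 by 0.99, and CD40LG, the ligand by which T cells help B cells, by 1.10. CD40LG was not well above background on any T24 array, so its fall is given as at least 1.97-fold. TNF fell by 1.55 (SE 0.41, adjusted p = 0.00428), and its ranges, 8.18 to 9.93 at T4 and 6.64 to 8.41 at T24, overlapped between rabbits. Within slide 2 the difference of TNF was 0.02, and without the rabbit as a block its adjusted p was 0.065. IL5 passed the test with -0.31 and lost the call without any 1 of the rabbits (adjusted p between 0.0589 and 0.125). Its signal was near background, so no fold is given.

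IFNG, the type 1 cytokine, passed the test in neither direction. The mean of its pair of probes, the brighter of which may not read it, was at 3.62, 3.93, 4.32 and 3.12 at T4 and at 4.40, 4.26, 3.95 and 3.43 at T24. It was higher at T24 in 3 rabbits and lower in rabbit 4, and the change of 0.26 (SE 0.15, adjusted p = 0.174) did not pass the test. Without rabbit 4 it passed, at 0.47 (adjusted p = 0.0257), and with quantile normalization it was -0.11, so the direction of the mean is not settled. This mean hides a pair of probes that behaved differently. The probe added for immune genes was at 2.01, 2.96, 2.94 and 0.62 at T4 and at 3.43, 3.18, 2.58 and 1.90 at T24, and it was below background on all 8 mock arrays. The catalogue probe lay between 4.90 and 5.71 at T4 and between 4.97 and 5.37 at T24, and between 5.57 and 7.4 on the mock arrays, where it was well above background throughout. It is listed under IFNG through an accession, but the files place it on chromosome 12, which in oryCun2 also holds the IFNGR1 probes, whereas RefSeq (mOryCun1.1) has IFNG and IFNGR1 on different chromosomes, so whether it reads IFNG is in doubt. Neither probe passed the test, with a change of 0.64 (adjusted p = 0.0958) for the added probe alone. LTA, which encodes lymphotoxin alpha, rose by 0.97 (SE 0.16, adjusted p = 3.82e-05), from levels between 4.42 and 4.73 to levels between 5.36 and 5.69. TNFSF11, the ligand of RANK, rose by 0.53, a call that was lost without rabbit 1 (adjusted p = 0.0612) and on 1 of its probes (adjusted p = 0.145). FASLG (-0.18), IL9 (0.19) and TNFSF8 (-0.44) did not pass the test, and TNFSF8 had a signal near background. FASLG passed with quantile normalization, at -0.55. TNFSF8 passed with processed signals, at -1.37 (adjusted p = 0.00708), in the fits of 8 arrays (adjusted p = 0.0183 and 0.034) and without rabbit 5 (adjusted p = 0.0434).

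**Figure D2:**
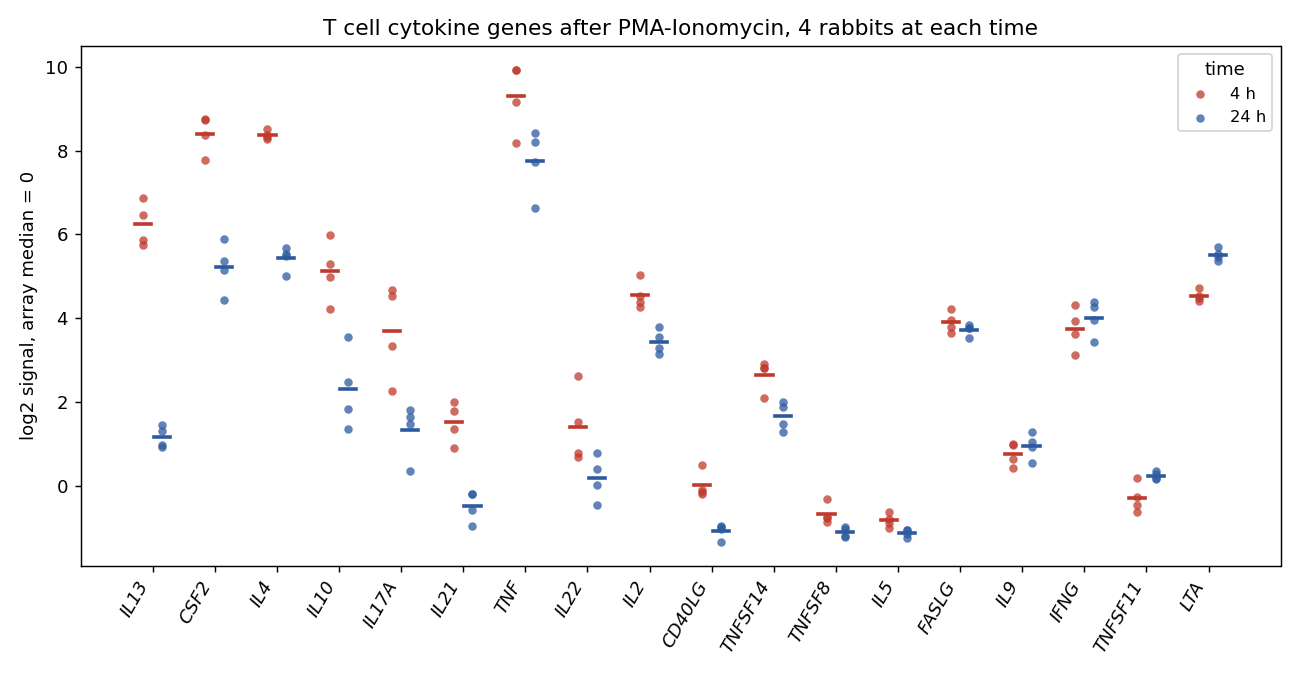
Levels of the 18 measured T cell cytokine genes under PMA-Ionomycin, ordered by their change, on the log2 scale with the array median at 0. Points are the 4 rabbits at T4 (red) and T24 (blue) and bars are means. IL13, CSF2, IL4, IL10 and IL17A show the widest gaps, IFNG overlaps between times, and LTA is higher at T24 in every rabbit. IFNG is the mean of a pair of probes, the brighter of which may not read it.

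Of 24 other cytokines 9 fell and 7 rose (median -0.57). With processed signals 13 fell and 7 rose (median -1.17), and with quantile normalization 11 fell and 5 rose. IL1B, an inflammatory cytokine, fell furthest. It was at 8.61, 7.79, 9.50 and 7.37 at T4 and at 1.83, 1.07, 1.99 and 3.29 at T24. The drop was seen in every rabbit, with a mean of 6.28 (SE 0.74, adjusted p = 4.96e-07), or 77.5-fold, with the smallest drop in rabbit 5. IL1A fell by 4.42, and LIF, a cytokine of the IL6 family, by 3.69. IL6 itself fell by 3.22. The rises were led by IL34, a ligand of the macrophage growth factor receptor CSF1R, which was at -0.57, -0.41, -0.74 and -0.55 at T4 and at 4.08, 4.16, 3.85 and 2.34 at T24. It was well above background on 2 arrays at T4 and on all 4 at T24, and rose by 4.17 (SE 0.37, adjusted p = 7.75e-09), less in rabbit 5 than in the others. TNFSF13, which encodes the B cell survival factor APRIL, rose by 2.38, IL18 by 2.14 and IL16, a ligand of CD4, by 1.56.

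Of 19 chemokines 5 fell and 4 rose (median -0.07), or 26.3 and 21.1% against 15.3 and 21.6% of all genes. CCL3, which attracts monocytes and T cells, fell by 4.15, and CXCL8, which attracts neutrophils, fell by 3.95. CCL4, a related chemokine, fell by 2.03 (adjusted p = 0.034), a call that was lost without rabbit 1, 2 or 4 (adjusted p = 0.0708, 0.135 and 0.0887), with quantile normalization (adjusted p = 0.0558), with normexp (adjusted p = 0.0685) and with trend and robust eBayes (adjusted p = 0.0616). CCL2, the monocyte chemoattractant, rose by 3.09, and CXCL10, an interferon-induced ligand of CXCR3, rose by 1.54. CXCL10 was well above background on 1 array at T4 and on all 4 at T24.

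Receptors of activation and costimulation fell more often than they rose, with 17 of 29 lower and 5 higher (median -0.75), the latter 2 without rabbit 1. CXCR4, the receptor that holds lymphocytes in marrow and lymph node, was at 5.68, 5.11, 6.25 and 5.70 at T4 and at 2.57, 2.32, 2.05 and 2.32 at T24. It fell in every rabbit, by 3.37 on average (SE 0.22, adjusted p = 1.07e-10). SLAMF1 fell by 2.85, and CD69, an early activation antigen, by 2.43. In the other direction LAG3, an inhibitory receptor of activated T cells that binds MHC class II, was at 2.69, 2.0, 2.70 and 3.0 at T4 and at 4.98, 4.36, 5.17 and 5.24 at T24. Its rise of 2.34 (SE 0.23, adjusted p = 4.26e-08) was seen in all 4 rabbits without overlap. CD70, the ligand of CD27, rose by 1.75, and the transferrin receptor TFRC, through which growing cells take up iron, rose by 0.85 with overlap between rabbits, a call that was lost without rabbit 1, 2 or 4 (adjusted p = 0.146, 0.0848 and 0.121) and under 4 other scalings of the signal.

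Transcription factors of lymphocyte fate were more mixed, with 10 of 23 lower and 4 higher (median -0.36, and -0.68 with quantile normalization). IRF4, which rises with the strength of the antigen signal, fell by 3.19 (SE 0.18), RORA by 1.91, and ID2, an inhibitor of E proteins, by 1.89. STAT4, which transmits the IL12 signal, rose by 1.97, and STAT6, which transmits that of IL4, by 0.72. Of 6 suppressors of cytokine signalling 1 rose and 1 fell. SOCS3 fell by 2.99 (SE 0.28, adjusted p = 2.02e-08), whereas SOCS1 rose by 1.24 (SE 0.27, adjusted p = 0.00086), and the other 4 measured members did not pass the test. Of 7 measured cytotoxic genes 3 rose and 1 fell (median 1.07), and the fall was lost without any 1 of the rabbits. GZMH, a granzyme of cytotoxic granules, rose by 2.39, PRF1, which encodes the pore protein perforin, by 1.21, and TNFSF10, which encodes TRAIL, by 1.25. The NFAT and calcineurin genes gave 2 rises and 3 falls among 14 (median 0.06), and in the BCL2 family 6 of 10 fell (median -0.38), led by the survival genes BCL2A1 (-2.24) and MCL1 (-1.11). Without rabbit 1, 2, 4 or 5 the falls in the BCL2 family numbered 3, 4, 3 and 3.

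The genes of DNA replication rose as a body. Of 33 measured, 31 rose and 1 fell, with a median change of 1.62, and the levels of 29 did not overlap between times. TYMS, the thymidylate synthase that supplies DNA precursors, was at 1.41, 0.51, 1.17 and 1.20 at T4 and at 4.53, 4.14, 4.33 and 4.49 at T24. The rabbits came closer together as the level rose by 3.30 (SE 0.16, adjusted p = 3.36e-12), or 9.85-fold. RRM1, the large subunit of ribonucleotide reductase, rose by 3.06, and RFC4, a subunit of the clamp loader, by 3.02. POLD3, an accessory subunit of DNA polymerase delta, was the member that fell (-1.11, adjusted p = 9.81e-06), in all 4 rabbits. Rises also made up 14 of 17 genes of DNA repair and checkpoint control (median 0.80), with BRCA2 at 2.47 and CHEK1 at 2.0, and 10 of 13 histone and chromatin factors (median 0.98), with the helicase HELLS at 2.91 and HMGB2 at 2.38. No member of either list fell.

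Mitotic genes rose as well. Of 42 measured genes of G2 and mitosis 36 rose and none fell (median 1.67). The median level of the list was 0.84 at T4 and 2.33 at T24, against 1.60 in mock culture at T4, so it started below mock culture. CDK1, the kinase that drives entry into mitosis, was at 2.94, 1.92, 2.29 and 2.82 at T4 and at 6.11, 5.53, 5.99 and 5.54 at T24. It rose in every rabbit without overlap, by 3.30 on average (SE 0.22, adjusted p = 1.61e-10). NCAPG, a condensin subunit, rose by 3.02, UBE2C, the ubiquitin-conjugating enzyme of the anaphase-promoting complex, by 2.86, and CCNB1, the partner of CDK1, by 2.78. The regulators of the G1/S step were less uniform, with 9 of 19 higher and 2 lower (median 0.27), and with processed signals 12 were higher and 3 lower (median 0.95). RB1 rose by 1.27, CDK4 by 1.26 and the cyclin CCND3 by 1.22. CDKN1A, which encodes the inhibitor p21, fell by 2.39 (SE 0.26), from levels between 5.94 and 7.20 to levels between 3.81 and 4.71, and CDK6 fell by 1.38.

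**Figure D3:**
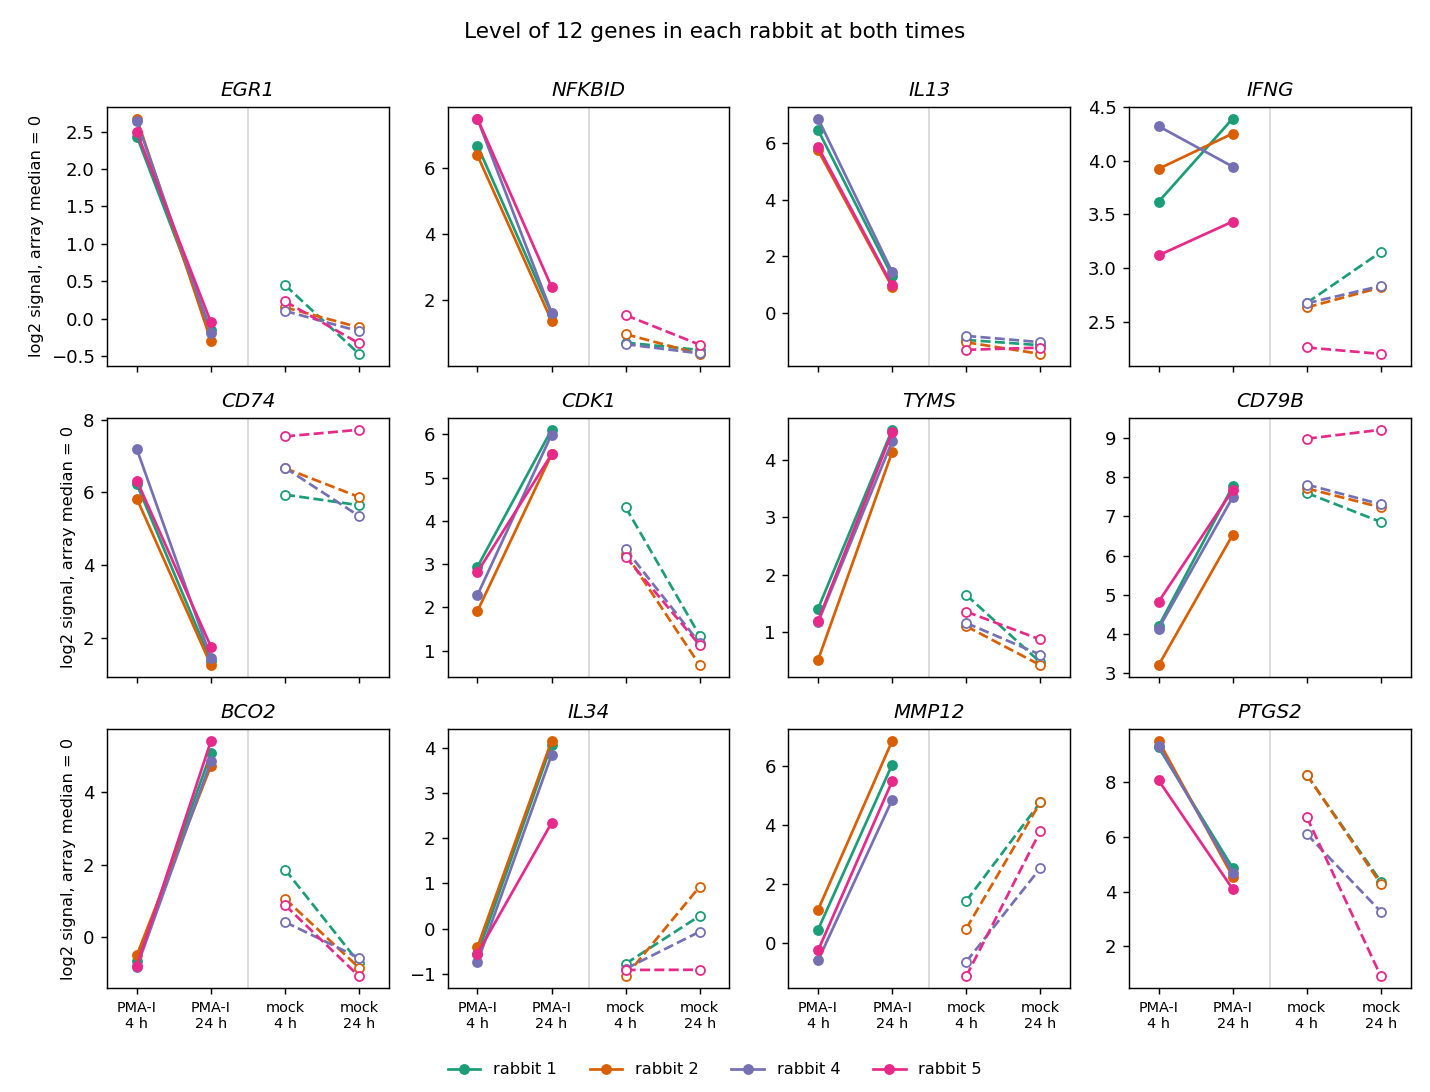
Levels of 12 genes in each rabbit, on the log2 scale with the array median at 0, under PMA-Ionomycin (PMA-I, filled points and solid lines) and in mock culture (open points and dashed lines). EGR1, NFKBID, IL13 and CD74 drop under PMA-Ionomycin in all 4 rabbits, CDK1 rises under PMA-Ionomycin and drops in mock culture, and MMP12 and PTGS2 move the same way in both. IFNG is the mean of a pair of probes, the brighter of which may not read it.

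Mitochondrial genes rose over the same period. Of 35 measured nuclear genes of oxidative phosphorylation 31 rose and none fell, with a median change of 1.24. Subunits of complex I led the list. NDUFC2 was at 5.06, 4.25, 4.58 and 5.00 at T4 and at 7.02, 6.97, 6.96 and 6.81 at T24, without overlap, and rose by 2.22 (SE 0.18, adjusted p = 3.23e-09) with 9 probes between 2.16 and 2.27. NDUFB3 rose by 2.35, but its probes ran from 0.31 to 2.82, and NDUFA12 rose by 2.15. Of 35 mitochondrial ribosomal proteins 25 rose and none fell (median 0.99, with 20 rises, 3 falls and a median of 0.57 under quantile normalization), led by MRPL47 (2.41) and MRPL13 (2.05). The cytosolic ribosomal proteins did not share this, with 2 of 14 higher, 2 lower and a median of -0.04. Without rabbit 2 or 4 none of them was higher, with quantile normalization 5 were higher and 4 lower, and with processed signals 0 and 4.

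Of 38 proteasome genes 23 rose and 4 fell (median 0.65), and with quantile normalization 16 rose and 6 fell (median 0.27). Without rabbit 4 there were 24 rises and 2 falls. The leaders were PSME2, a subunit of the activator induced by interferon gamma, which rose by 2.05, and PSMB9, a catalytic subunit of the immunoproteasome, which rose by 1.95. Among 21 chaperones 10 rose and 4 fell (median 0.20), but with quantile normalization 7 rose and 8 fell. The mitochondrial pair HSPE1 and HSPD1 rose by 2.01 and 1.14, whereas HSPA5, the chaperone of the endoplasmic reticulum, fell by 1.98. In the unfolded protein response, the stress programme of that compartment, 13 of 17 genes fell and none rose (median -0.77). CHAC1 fell by 2.62, HERPUD1, which helps degrade misfolded proteins, by 2.55, and DDIT4, an inhibitor of mTOR complex 1, by 2.36.

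Of 11 amino acid transporters 6 fell and 3 rose (median -1.45). SLC3A2 and SLC7A5, which form the large neutral amino acid transporter, fell by 2.58 and 2.42. SLC7A8, another light chain that pairs with SLC3A2, rose by 2.72, although its probes ran from 0.01 to 3.35. Of 16 tRNA synthetases 7 fell and 4 rose (median -0.32), with NARS1 at -2.47 and AARS1 at -1.79. Among 35 ribosome biogenesis genes 15 fell and 3 rose (median -0.37), with POLR1C, a subunit of RNA polymerases I and III, at -1.61. Of 28 translation factors 7 rose and 7 fell (median -0.04). These counts rested on the scaling. With quantile normalization 6 translation factors rose and 12 fell (median -0.31), no ribosome biogenesis gene rose and 23 fell (median -0.75), and 1 tRNA synthetase rose and 9 fell (median -0.68). Without rabbit 4, 1 amino acid transporter rose, and without rabbit 1 or 2 the rises among tRNA synthetases were 2.

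The metabolic lists held changes in both directions. Of 16 glycolysis genes 6 fell and 2 rose (median -0.28, and -0.52 with quantile normalization). Only 1 rose without rabbit 2 or without rabbit 5. In the fit of 8 arrays with the rabbit as a block 5 rose and 8 fell. The glucose transporter SLC2A3 was at -1.93, hexokinase HK2 at -1.59 and lactate dehydrogenase LDHB at 1.22. Of 14 cholesterol synthesis genes 5 rose and none fell (median 0.30), led by ACAT2 (1.97), whereas with quantile normalization 4 rose and 2 fell (median 0.17). Of 17 genes of serine and one-carbon metabolism 8 rose and 2 fell (median 0.04), and TYMS, given above, was the largest rise among them.

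MHC class II was the list with the lowest median, -2.96. Of 10 measured members 9 fell and none rose. CD74, the invariant chain that guides class II molecules to the endosome, was at 6.22, 5.83, 7.19 and 6.32 at T4 and at 1.36, 1.25, 1.45 and 1.76 at T24. The fall of 4.93 (SE 0.37, adjusted p = 8.19e-10) was 30.5-fold, and the lowest T4 level was above the highest T24 level by over 4 units. RLA-DQA, a class II alpha chain of the rabbit, was at 7.63, 7.11, 9.27 and 8.81 and then at 1.87, 2.31, 3.44 and 4.31. It fell by 5.22 (SE 0.39), with rabbits 4 and 5 highest at both times. HLA-DOA, a subunit of the modulator of peptide loading, fell by 4.78. RLA-DMB did not pass the test (-0.37), but passed without rabbit 5 (adjusted p = 0.0107) and under 4 other scalings. Class II genes are similar in sequence, so probes of different members may share signal. MHC class I and peptide loading genes gave 1 rise and 1 fall among 10 (median -0.08). The rise was lost without rabbit 4 or 5 and in the fits of 8 arrays.

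Class II is carried by B cells and monocytes, and the markers of these cells are therefore given beside it. Of 9 B cell markers 2 rose and 3 fell (median 0.33), and their mean level lay between 2.28 and 3.03 on the T4 arrays and between 2.53 and 3.17 on the T24 arrays. The 2 rises were CD22 (0.54) and CD79B, the signalling chain of the B cell receptor. CD79B was at 4.20, 3.21, 4.14 and 4.82 at T4 and at 7.76, 6.53, 7.49 and 7.67 at T24. It rose by 3.27 (SE 0.34, adjusted p = 8.11e-08) on its single probe, with rabbit 2 lowest at both times. FCER2 (-1.20), MS4A1 (-0.88) and POU2AF1 (-0.75) fell. The call of CD22 was lost without rabbit 1, 2 or 4 (adjusted p = 0.125, 0.0674 and 0.0813) and that of POU2AF1 without rabbit 4 (adjusted p = 0.0997). FCER2 lost its call without the rabbit as a block (adjusted p = 0.113), and the probes of MS4A1 differed, from -1.37 to 0.06. Of 14 monocyte and macrophage markers 5 rose and 5 fell (median 0.03), and their mean level lay between 1.79 and 2.37 at T4 and between 1.5 and 1.87 at T24. Without rabbit 2 these were 2 rises and 3 falls, with quantile normalization 1 and 5, and with normexp 0 and 5. MARCO, a scavenger receptor, was at 3.34, 6.66, 5.13 and 4.58 at T4 and fell by 5.58, to a level well above background on 1 of 4 arrays. CD14, the LPS coreceptor, rose by 1.10 and CSF1R by 1.08, although CD14 with quantile normalization was at 0.66 (adjusted p = 0.0736) and CSF1R with normexp at 0.83 (adjusted p = 0.0712). The part of these cell types in the fall of class II was not tested.

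The alarmins fell with a wide spread between rabbits. Of 17 S100 and antimicrobial genes 11 fell and 1 rose (median -0.98). S100A8, a calcium-binding alarmin of myeloid cells, was at 7.02, 4.83, 4.75 and 5.63 at T4 and at 3.23, 0.23, -0.25 and 0.97 at T24. Rabbit 1 was highest at both times, and the fall was 4.51 (SE 0.56, adjusted p = 1.08e-06). MRP-8, under which the files list further probes of the same alarmin, fell by 4.22, so the 2 names are not separate evidence. DEFB1, an epithelial-type defensin, fell by 4.92. S100A9, the partner of S100A8, fell by 2.49, but 1 of its probes gave -5.01 and the other 0.02. As these genes are also neutrophil markers, the whole neutrophil list is given beside them, in which 3 of 9 fell (6 with processed signals, and 5 in the fit of 8 arrays with the rabbit as a block), 1 rose and the mean level lay between 2.28 and 3.06 at T4 and between 1.36 and 2.09 at T24. Its rise was MMP9 (1.97), which macrophages also make, and the 3 falls were S100A8, S100A9 and S100A12, of which S100A12 lost its call without rabbit 2 (adjusted p = 0.0585) and differed by 0.07 within slide 2. The cells had been isolated on a density gradient, a step that removes most neutrophils, and the part of neutrophils in the falls was not tested.

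Of 28 interferon response genes 12 rose and 2 fell (median 0.47). Without rabbit 5, 10 rose and 6 fell (median 0.29). XAF1, an interferon-induced gene of apoptosis, rose by 2.31, SAMHD1, which limits nucleotide pools, by 2.08, and the transcription factor IRF3 by 1.95. CALHM6 rose by 1.47, from a level well above background on 2 arrays at T4. OASL fell by 2.65 and IRF1 by 1.43. Of 42 lysosome genes 12 rose and 5 fell (median 0.26), with NPC1, which exports cholesterol from the lysosome, at -2.92. The lysosome rises numbered 6 without rabbit 1 and 4 without rabbit 2, and with quantile normalization or processed signals 4 rose and 10 fell. Of 12 T cell markers 2 rose and 3 fell (median 0.04), which became 1 and 1 without rabbit 1. Of 7 platelet markers 2 fell and of 7 erythroid markers 3, and in the fits of 8 arrays 1 of each list fell. Without rabbit 5, 1 platelet marker rose and 1 fell. Of 2 measured NK cell markers NCR3 rose by 1.04.

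Taken over all genes with a symbol, the largest rise was that of BCO2, a mitochondrial enzyme that cleaves carotenoids. It was at -0.68, -0.51, -0.83 and -0.80 at T4, below background on all 4 arrays, and at 5.09, 4.74, 4.86 and 5.43 at T24. The change of 5.73 (SE 0.25, adjusted p = 1.51e-12) rested on the single probe printed above, and is given as at least 52.7-fold because the T4 signal is only a bound. MMP12, the macrophage elastase, rose by 5.63 (SE 0.37), SPP1, which encodes osteopontin, by 4.59 (SE 0.57) and the carbonic anhydrase CA2 by 4.13 (SE 0.30). TLR10, a Toll-like receptor of B cells, was at -0.47, -0.47, -0.18 and -0.30 at T4 and at 3.74, 3.08, 3.27 and 3.22 at T24. It was well above background on 2 of the T4 arrays, and its rise of 3.68 (SE 0.24) was even across rabbits. ARL3, a small GTPase of ciliary transport, rose by 3.39, SLC25A12, the mitochondrial aspartate-glutamate carrier, by 3.33, and XPO1, the main nuclear export receptor, by 3.14 (SE 0.13).

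The largest fall was that of TNFAIP6, a hyaluronan-binding protein of inflammation. It was at 9.26, 9.76, 9.14 and 8.06 at T4 and at 2.79, 2.74, 2.30 and 1.92 at T24. Rabbit 5 was lowest at both times, and the fall of 6.62 (SE 0.58, adjusted p = 8.80e-09) was 98.1-fold. HDC, the enzyme that makes histamine, fell by 4.81 (SE 0.29), and PTGS2, which encodes the inducible cyclooxygenase COX-2, by 4.51 (SE 0.37). IL1B, MARCO, NFKBID, RLA-DQA, IL13, CD74, DEFB1, HLA-DOA and S100A8, described above, made up the rest of the 12 largest falls.

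**Figure D4:**
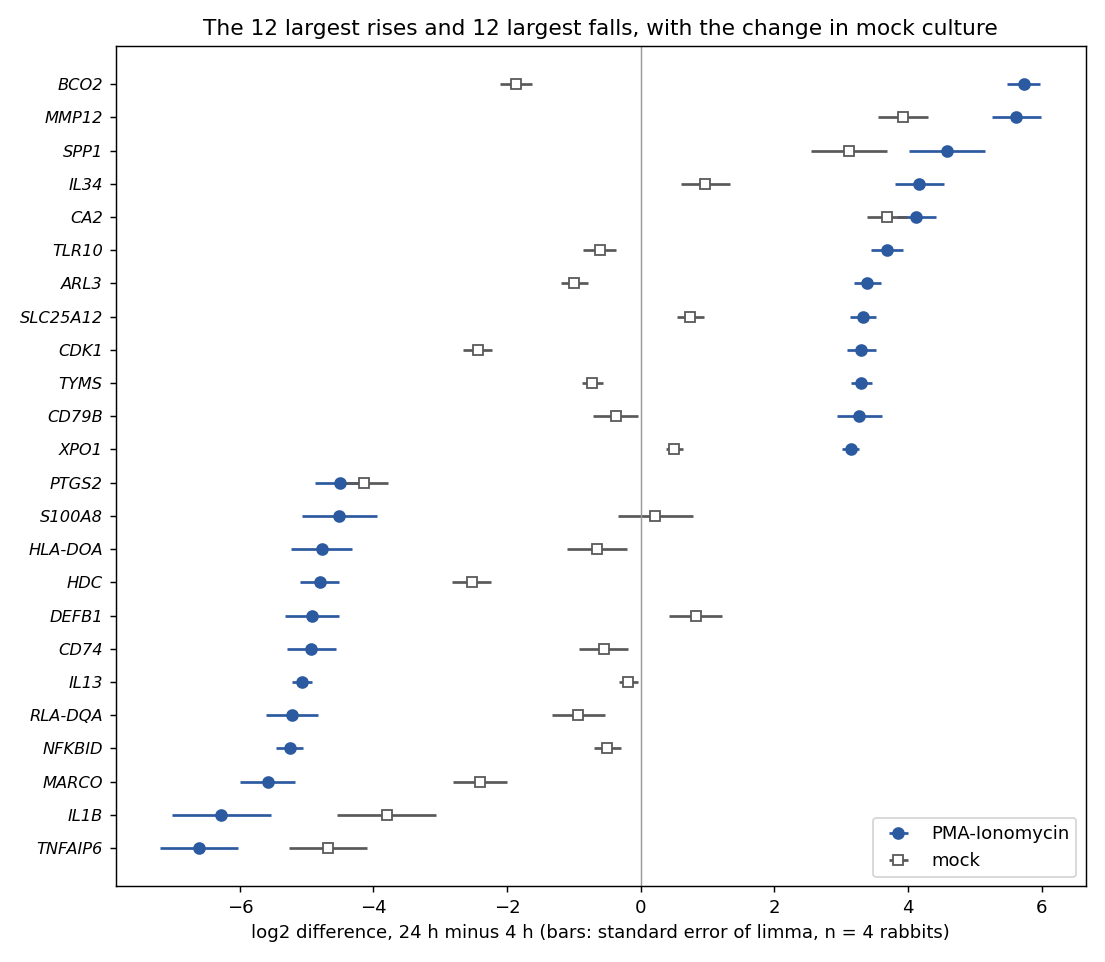
The 12 largest rises and the 12 largest falls between T4 and T24 under PMA-Ionomycin (blue), with the change of the same genes in mock culture (open squares), in log2 units with the standard error of limma (n = 4 rabbits). BCO2 rises by 5.73 under PMA-Ionomycin and falls by 1.87 in mock culture, while CA2, SPP1, MMP12, PTGS2 and TNFAIP6 move the same way in both.

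Cells in culture change without any stimulus, and the change over time was therefore set against that of mock-stimulated PBMCs of the same rabbits. In mock culture 2591 genes rose (9.01%) and 1884 fell (6.55%). Of the 6210 genes that rose under PMA-Ionomycin 1413 also rose in mock culture (22.8% of the former and 54.5% of the latter) and 574 fell in it. Of the 4401 that fell 739 also fell in mock culture (16.8 and 39.2%) and 281 rose. The difference between the changes, tested as an interaction, passed for 7502 genes (26.1%), with 4586 more positive under PMA-Ionomycin (15.9%) and 2916 more negative (10.1%). Set against LPS, the change over time differed for 10354 genes (36.0%). The interactions use the same PMA-Ionomycin arrays as the comparison of times and are not separate evidence of it.

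In mock culture 35 of 42 genes of G2 and mitosis and 17 of 33 of DNA replication fell, and no member of either list rose. CDK1 fell there by 2.44, against its rise of 3.30, and NCAPG fell by 2.68. For 40 of 42 genes of G2 and mitosis and for 30 of 33 of DNA replication the change was more positive under PMA-Ionomycin than in mock culture, where the list medians were -1.28 and -0.51. In mock culture BCO2 fell by 1.87, CD70 by 1.71 and CXCL10 by 1.62, so that the difference of the changes was 3.46 for CD70 and 3.16 for CXCL10. For BCO2 the fitted difference was 7.60, which is no measured size, as its signal was below background under PMA-Ionomycin at T4 and in mock culture at T24. The class II list had a median of -0.15 in mock culture, and of the 19 immediate early genes 6 fell and 2 rose there. CD74 had a change of -0.55 there (adjusted p = 0.385), IL13, below background on all 8 mock arrays, of -0.19 (adjusted p = 0.473) and NFKBID of -0.50 (adjusted p = 0.113), and the change differed for 9 of 10 class II and 18 of 19 immediate early genes, all more negative under PMA-Ionomycin. NR4A3 was an early gene that also fell in mock culture, by 2.15. In mock culture CD74 lay between 5.94 and 7.54 at T4 and between 5.35 and 7.72 at T24, ranges that overlapped with its PMA-Ionomycin levels at T4 and not with those at T24. CD79B showed the reverse order. In mock culture it lay between 7.60 and 8.98 at T4 and between 6.86 and 9.21 at T24, above all PMA-Ionomycin levels at T4 and overlapping with those at T24, and its rise differed from mock culture by 3.64 (adjusted p = 5.52e-06). Under LPS, CD74 had a change of 0.90 (adjusted p = 0.0538) and the class II list a median of 0.72. S100A8 and IL10 rose under LPS, by 4.05 and 4.02, against their falls under PMA-Ionomycin, and the differences of -8.56 and -6.83 passed the test (adjusted p = 4.29e-08 and 2.90e-06).

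Other changes were shared with mock culture. PTGS2 fell by 4.15 in mock culture, and the difference of -0.36 did not pass the test (adjusted p = 0.75). TNFAIP6 fell by 4.69 there, CA2 rose by 3.69, SPP1 rose by 3.11 and CCL2 rose by 3.50, with differences of -1.93 (adjusted p = 0.0989), 0.44 (adjusted p = 0.559), 1.48 (adjusted p = 0.218) and -0.41 (adjusted p = 0.818). TNFSF13 rose in both, by 4.79 in mock culture, which left a difference of -2.41 (adjusted p = 1.52e-05). TNF fell more in mock culture (-3.24) than under PMA-Ionomycin, a difference of 1.69 (adjusted p = 0.0344).

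In mock culture 35 of 42 lysosome genes rose, with a median of 1.72, and for 32 of 42 the change was more negative under PMA-Ionomycin. CTSB, a lysosomal cysteine protease, rose by 4.22 in mock culture and had a change of 0.43 (adjusted p = 0.279) under PMA-Ionomycin. That change passed in the fits of 8 arrays (adjusted p = 0.0295 with the rabbit as a block and 0.0477 without). MGP, the matrix Gla protein, rose by 5.51 in mock culture and was below background on all 8 PMA-Ionomycin arrays. The monocyte and macrophage markers went with this. Their median change in mock culture was 1.07, with 8 of 14 higher, and their mean level went from between 2.50 and 3.50 at T4 to between 3.50 and 4.40 at T24, whereas under PMA-Ionomycin it lay below both ranges at both times. Platelet markers fell in mock culture, 6 of 7 with a median of -1.79, against 2 of 7 under PMA-Ionomycin. At T4 their mean level lay between 0.13 and 1.04 under PMA-Ionomycin, below the 1.70 to 2.64 of mock culture. At T24 the ranges overlapped (-0.08 to 0.05 and -0.32 to 0.115). Under PMA-Ionomycin 3 of 7 were well above background on all 4 arrays at each time. The part of monocytes and of platelets in these differences was not tested.

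**Figure D5:**
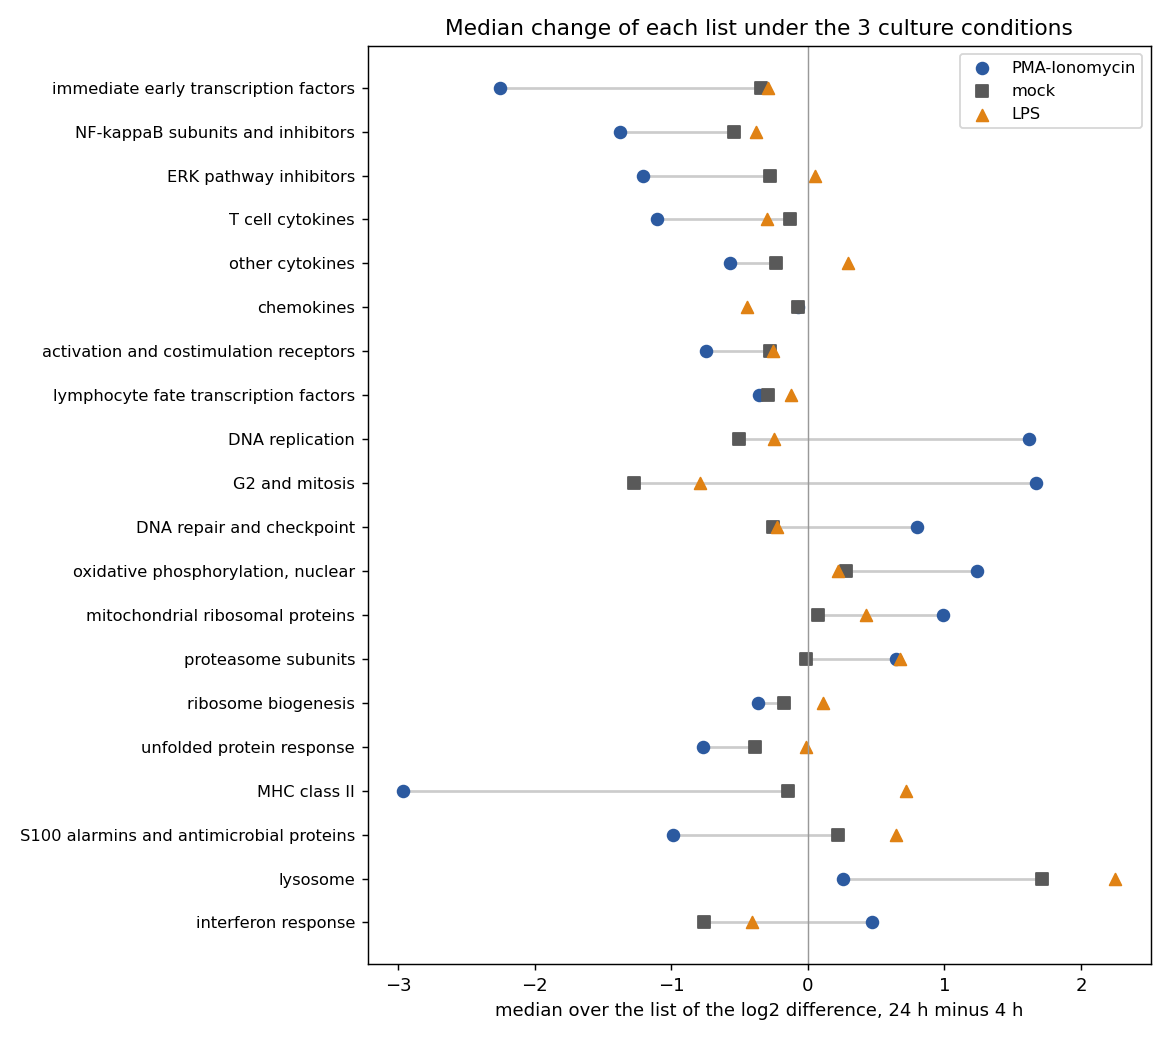
Median change between T4 and T24 of 20 gene lists under PMA-Ionomycin (circles), in mock culture (squares) and under LPS (triangles), in log2 units. Replication and mitosis lists lie at 1.62 and 1.67 under PMA-Ionomycin and below 0 in the other cultures, MHC class II lies at -2.96 under PMA-Ionomycin alone, and the lysosome list lies at 1.72 in mock culture against 0.26.

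Arrays of both times lay on each of the 3 slides, which allowed the change to be taken within a slide. The median of MHC class II was -3.38, -3.70 and -2.12 within slides 1, 2 and 3, that of the immediate early genes -2.58, -1.72 and -2.04, and that of the T cell cytokines -0.87, -0.46 and -1.17. That of DNA replication was 1.89, 1.29 and 1.48, that of G2 and mitosis 1.98, 0.90 and 1.65, and that of oxidative phosphorylation 1.56, 1.11 and 1.05. No slide held both times of the same rabbit, so each of these values compared different rabbits. Slide 2 held 1 array of each time and gave the smallest value for 4 of these 6 lists.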

How the data were processed

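Total RNA of PBMCs from 4 rabbits was labelled with 1 colour (Cy3) and hybridized to 24 arrays of rabbit 60-base probes, 1 array per rabbit, stimulation and time. The authors extracted the deposited signal intensity of each spot with Agilent Feature Extraction 10.7.3.1, per the file headers and the submitters' processing notes, and it was neither background-corrected nor scaled between arrays. The deposited log2 table of the authors equalled the log2 median signal after the array's mean across spots was taken off (largest difference 5e-09), with column medians between -1.11 and -0.811, so its scale and centring are known, and it served as an alternative.

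Here the log2 median signal of 61657 non-control spots was centred on the median of its array, outlier-flagged spots were left out, spots were averaged per probe and 42089 probes per gene or identifier. A gene averages all its probes, and their range is given for genes whose probes differed widely. Of 28877 genes and identifiers, 9624 had a symbol, found through RefSeq accessions, gene numbers or names in the files, and 21655 probes kept an identifier only. The 28762 with a value on every array were tested with lmFit and eBayes of limma 3.58.1 (R 4.3.3) in 1 fit of all 24 arrays with 6 group means and the rabbit as a fixed block, and p-values were adjusted over all of them by Benjamini-Hochberg at 0.05. A gene not well above background on any array of the dimmer group has a bound in place of a fold, namely the brighter group's mean over the dim group's mean of, per array, the higher of the gene's own signal and the lowest signal that was well above background. Precision is set by the 4 arrays per group. The replicate is the rabbit, as named in the labels, and T4 and T24 of a rabbit share 1 animal. Deviations from the group means had a median correlation of 0.228 over 60 pairs of arrays of the same rabbit and of -0.0761 over 180 pairs of different rabbits. Between T4 and T24 under PMA-Ionomycin it was 0.0494, 0.562, 0.151 and 0.227 for rabbits 1, 2, 4 and 5.

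The genes named were drawn from the 12 largest rises and 12 largest falls with 1 direction in all 4 rabbits and with every array of the brighter group well above background, the 3 largest of each kind in every list under the same conditions, all T cell cytokines, members that did not pass the test, and genes the paper names for PMA-Ionomycin, of which the last were used in part. EGR1 was added after its values were seen. The comparison, gene lists and tests were chosen with earlier results of these data known. No set test was run, and lists are described by counts and medians. The fit was also run on simulated data with known changes, and the outcome is not given here. Alternatives were the fit without the block, fits of 8 arrays (16 for the interactions), quantile normalization, processed signals set to the 75th percentile of each array, normexp (offset 50) before quantile normalization, the deposited table, a filter on dim probes, outlier spots kept, slide as a further block, array weights, trend and robust eBayes, single probes, a log2 difference of at least 1, values within slides, and leaving out each rabbit. A result for 1 further gene that met the rule for named genes is not reported here.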

Additional observations from a re-analysis of the deposited data

Results flagged for a closer look

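The change between T4 and T24 under PMA-Ionomycin differed from that in mock culture for 7502 genes and from that under LPS for 10354 genes, each by the interaction test of limma. Among the genes named, the difference from mock culture was 5.74 for CDK1, 5.70 for NCAPG, 3.64 for CD79B, 3.46 for CD70, 3.16 for CXCL10 and 1.69 for TNF. It was -4.75 for NFKBID, -4.38 for CD74, -3.80 for CTSB, -2.41 for TNFSF13 and -1.89 for NR4A3. Fitted differences of 7.60 for BCO2, -5.41 for MGP and -4.88 for IL13 involve signals below background, of BCO2 under PMA-Ionomycin at T4 and in mock culture at T24, of MGP on all PMA-Ionomycin arrays and of IL13 on all mock arrays, and are not measured sizes.

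In 17 of 280 sets of 4 PMA-Ionomycin arrays of a named gene, 1 array stood far from the other 3 by Dixon's test, which chance alone gives in about 1 in 20 groups. Rabbit 2 stood apart at T24 for HDC (1.61), RFC4 (6.71), RB1 (2.53), ACAT2 (5.45), SLC3A2 (3.34), IL6 (4.84) and EGR4 (-0.43), and at T4 for PSMB9 (6.14). Rabbit 5 did so for IL34 at T24 (2.34) and for PTGS2 (8.07) and IL1A (5.24) at T4. Rabbit 4 did so at T4 for CA2 (0.69), IRF4 (4.68), CD40LG (0.50) and TNFSF14 (2.10), and rabbit 1 at T24 for PRF1 (1.98) and SOCS3 (1.28). Rabbit 2 also had the lowest share of spots well above background among the PMA-Ionomycin arrays at both times.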

How the results depend on the processing

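Of 132 named genes that passed the test between T4 and T24, 121 passed in the same direction under every refit of gene values, single probes left out. Within each slide, where the times came from different rabbits, 130 had the same direction. Leaving out 1 rabbit gave between 8890 and 9647 changed genes, with 5304 to 5902 rises and 3269 to 3963 falls, between 5621 and 6738 genes that differed from mock culture (3393 to 4371 more positive and 2181 to 2367 more negative) and between 8564 and 9388 that differed from LPS (4485 to 5289 and 3879 to 4112). Rises in DNA replication stayed at 31, those in G2 and mitosis at 35 to 36 and those in oxidative phosphorylation at 28 to 31, while falls were 18 for immediate early genes, 8 to 10 for MHC class II and 11 to 12 for T cell cytokines. Without the rabbit as a replicate block 5853 genes rose and 3853 fell, 9654 of the 10611 changed genes passed again, and CCL4, FCER2, S100A12, TFRC and TNF lost their call. With a log2 difference of at least 1, 4582 genes changed, 3050 up and 1532 down, and 4407 (2750 and 1657) differed from mock culture and 6325 (3213 and 3112) from LPS. Over single probes, 11376 differed from mock culture, 4528 of them more negative, and 7278 were more negative than under LPS, counts taken over more features. Over single probes a probe of SLC7A8, NDUFB3, TNFSF11 and TFRC did not pass (adjusted p = 0.954, 0.175, 0.145 and 0.0879), nor did 3 of IL5 (0.124, 0.116 and 0.418). The sign turned for a single probe of MS4A1 (0.060), S100A9 (0.021), IFNG (-0.12) and MGP (-0.04 and -0.015), and within slide 2 for TNF (0.021) and S100A12 (0.071). For genes that did not pass the test it turned with quantile normalization, without and with normexp, for IFNG (-0.11 in both) and CTSB (-0.0062 in both), and with the processed signal for IFNG (-0.0071) and IL9 (-0.040). These causes were not tested. Signal near background limits IL5, TNFSF8, EGR4 and MGP, and the T4 levels of BCO2.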
